A study of Mus musculus with 6 samples.

Results

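Mitochondria are kept in shape and in number by removal and by remodelling. In mitophagy, receptor proteins in the outer mitochondrial membrane tether the organelle to the forming autophagosome, and in mitochondrial dynamics large GTPases of the dynamin family divide and fuse the organelles. BNIP3, its paralog BNIP3L (also called NIX) and FUNDC1 are such receptors, and low oxygen is a known inducer of receptor-driven mitophagy, with *Bnip3* a classical target gene of the transcription factor HIF-1. PINK1 is the kinase that accumulates on damaged mitochondria and marks them for ubiquitin-dependent removal. DRP1, the product of *Dnm1l*, cuts mitochondria, and FIS1 is an outer membrane protein linked to that step. MFN1 and MFN2 fuse outer membranes, and OPA1 fuses inner membranes. These 9 genes were taken by symbol from the 16244 genes of the table, and all 9 were present and passed the filter on low values.

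The libraries came from Th17 cells grown in culture from splenic CD4+ T cells of WT mice or of knockin mice that carry the N275D change in RORγt, the transcription factor that defines the Th17 lineage. There were 3 libraries per genotype, WT and RORγtN275D (Mut in the genotype label). Cells of both genotypes were stimulated through CD3 and CD28 and polarized for 3 days toward pathogenic Th17 cells. The series text names IL-6, IL-1β and IL-23 for this, whereas the methods add IL-23 and IL-1β to a mix that also holds TGF-β and antibodies to IL-4 and IFN-γ. The methods list purchased C57BL/6 mice as WT, named C57BL/6NJ in the resource list, and knockin mice on a C57BL/6 background from another laboratory. The substrain of the knockin mice is not stated, nor which WT animals, purchased or littermates, gave these libraries. The zygosity and whether each library had its own mouse or culture are also not stated for these libraries. The methods give a general age range of young adult mice for the study's experiments, with no separate age for these libraries. P-values therefore measure the spread between these libraries, which may be technical. Genotype cannot be told apart from the source or the substrain of the mice.

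Each library held 17659035 to 18510878 reads assigned to genes, and every one of the 9 genes had at least 298 reads in each library. The SD between libraries was 1.13% to 10.6% of the mean over the 9 genes and 2 genotypes, and the Poisson counting error of 1 library was 1.53% to 5.59%, smaller than the SD in 15 of 18 cases. WT replicate 3 lay farthest from its group. The T helper and Th17 marker list was well expressed. Its summed level was 90068 to 93705 normalized reads in WT and 100346 to 101549 in RORγtN275D libraries. All 10 genes were tested, and 6 were called higher and 4 lower. Markers of other cells were scarce, and several of them were also called. Of all genes tested, 50.9% were called by the test described below, 24.7% higher and 26.1% lower. B cell markers summed to 163 to 173 normalized reads in WT and 241 to 308 in mutant libraries, with 4 of the 5 tested called higher and *Ms4a1* at 0 in WT replicates 2 and 3. CD8 T and natural killer markers summed to 201 to 216 and 284 to 325, with 3 of 4 called higher. Myeloid markers summed to 89.8 to 108 and 105 to 130, with 1 of 3 called higher and 1 lower. Of the 4 gamma delta T cell markers only *Sox13* was in the table, at 18.2 to 31.4 and 35.1 to 38.5, and it was called higher. The erythroid markers, of interest because BNIP3L clears mitochondria from maturing red cells, summed to 3.93 to 6.05 and 2.99 to 10.03 over the 3 of 7 that were in the table. The part of other cells in the results was not tested. In bulk RNA, fewer cells of a type and less RNA per cell cannot be told apart.

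Genotypes were compared by limma on log2(normalized reads + 1) for 11908 genes whose mean reached 10 normalized reads, with Benjamini-Hochberg adjustment over all of them. RORγtN275D Th17 cells held more *Bnip3*, *Bnip3l*, *Pink1* and *Dnm1l* transcript than WT cells. The other 5 genes, *Fundc1*, *Fis1*, *Mfn1*, *Mfn2* and *Opa1*, did not pass the test. Of the 9 genes, 4 were called higher and 0 lower at an adjusted p under 0.05, where 50.9% of all genes tested were called, 24.7% higher and 26.1% lower. Without WT replicate 3, 4 were called higher and 2 lower, where 6396 of all genes tested were called, against 6056 with all libraries. At 2-fold and the same adjusted p, 1 of the 9 was called higher, where 3.59% of all genes tested were called at 2-fold and 2.73% were called higher. The genotypes did not overlap in 5 of the 9 genes, the 4 called and *Mfn2*, where this held for 57.7% of all genes tested. By role, 3 of the 4 mitophagy genes and 1 of the 2 fission genes were called higher, and 0 of the 3 fusion genes were called.

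**Figure D1:**
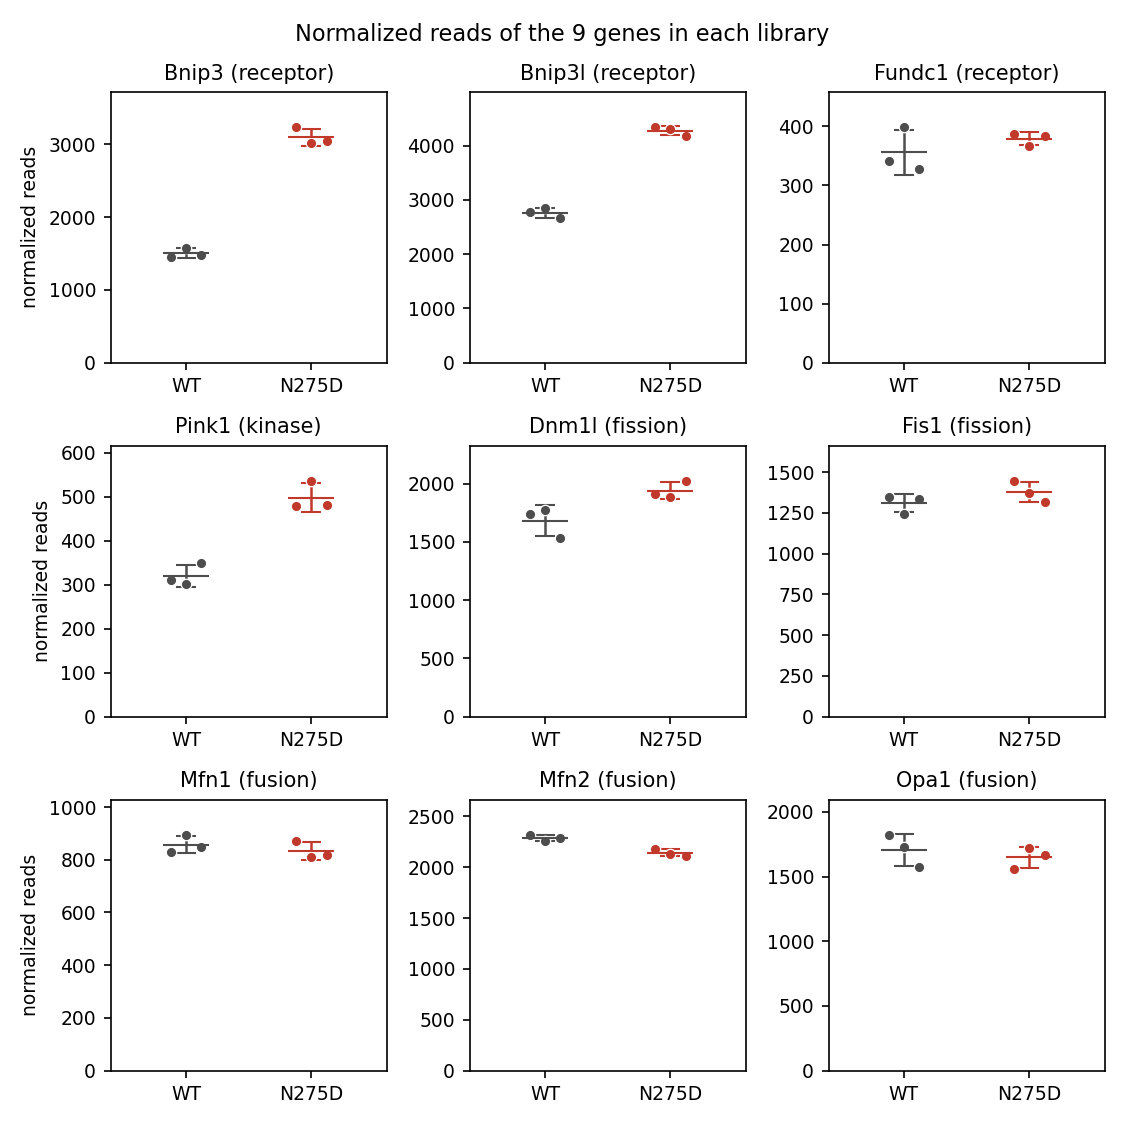
Normalized reads of each of the 9 genes (vertical axis, from 0) in the 3 WT and the 3 N275D libraries. Points are libraries and bars the mean ± SD (n = 3), and the mutant points stand clear of the WT points for *Bnip3*, *Bnip3l*, *Pink1* and *Dnm1l* (higher) and for *Mfn2* (lower).

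*Bnip3* (NCBI gene 12176, GRCm38 chromosome 7, 138890836 to 138909506) changed most. It had 1448, 1581 and 1475 normalized reads in WT replicates 1 to 3 and 3233, 3017 and 3041 in mutant replicates 1 to 3. The 3 mutant libraries all lay far above the 3 WT libraries, with no overlap. The means were 1501 ± 69.9 and 3097 ± 119 normalized reads (SD, n = 3 per genotype). On the log2 scale mutant cells were higher by 1.04 ± 0.05 (standard error, limma, adjusted p = 3.19e-11), or 2.06-fold, and 2.40% of the genes tested had a higher log2 fold change. The 95% interval of the fold, 1.93 to 2.21, includes 2-fold. An antisense RNA gene and a processed pseudogene overlap *Bnip3* on the opposite strand, and whether the counting used strand is not stated in the sources used here, so that reads from them cannot be set apart.

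*Bnip3l* (gene 12177, chromosome 14, 66985238 to 67008877) had more reads than *Bnip3* in each library and rose by less. It had 2771, 2856 and 2675 normalized reads in WT and 4341, 4318 and 4178 in RORγtN275D libraries. The groups lay far apart, with little spread within either. The means were 2767 ± 90.6 and 4279 ± 87.8 normalized reads (SD, n = 3 per genotype). The difference on the log2 scale was 0.63 ± 0.04 (standard error, limma, adjusted p = 2.06e-09), which is 1.55-fold with a 95% interval of 1.46 to 1.64. A near-identical processed copy, *Bnip3l-ps*, had between 0 and 2 reads in any library. *Fundc1* (gene 72018, chromosome X, 17519967 to 17572329), the third receptor, had 342, 398 and 327 normalized reads in WT and 386, 366 and 384 in mutant libraries. WT replicate 2 was the highest of the 6 libraries, and the groups overlapped. Its log2 fold change was 0.09 (adjusted p = 0.319 from limma), with a 95% interval of -0.07 to 0.26.

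*Pink1* (gene 68943, chromosome 4, 138313409 to 138326296) had the lowest mean of the 9 genes in WT cells, in reads (where its range overlapped that of *Fundc1*) and per exon length. It had 309.9, 301 and 349 normalized reads in WT and 478, 535 and 480.0 in mutant libraries, without overlap. The difference on the log2 scale was 0.64 ± 0.07 (standard error, limma, adjusted p = 2.88e-06), or 1.56-fold with a 95% interval of 1.40 to 1.73. MicroRNA genes overlap *Pink1* on the same strand.

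Hypoxia response elements are a known feature of HIF-1 targets, and the promoters of the 9 genes were searched for their core letters. Whether HIF-1 acts on these genes was not tested. Each window is the 250 bases before a transcript start in RefSeq's promoter set, 5′ to 3′ on the gene's strand. The 3 windows printed end just before the RefSeq gene, and some of the others lie partly or wholly within the gene, where another transcript starts earlier. RefSeq promoters of GRCm38.p6 were found for 8 of the 9 genes (12 windows), and *Bnip3l* had no entry. Capitals mark ACGTG or GCGTG on either strand, the core letters of the hypoxia response element, and the AGGTCA core of the element bound by ROR proteins was searched in the same way.
Bnip3, chr7:138909507-138909756, minus strand: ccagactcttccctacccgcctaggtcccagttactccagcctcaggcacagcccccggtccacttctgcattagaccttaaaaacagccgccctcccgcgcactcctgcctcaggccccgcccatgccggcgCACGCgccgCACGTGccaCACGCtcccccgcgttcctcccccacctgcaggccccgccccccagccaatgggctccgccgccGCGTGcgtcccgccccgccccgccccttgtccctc
Pink1, chr4:138326297-138326546, minus strand: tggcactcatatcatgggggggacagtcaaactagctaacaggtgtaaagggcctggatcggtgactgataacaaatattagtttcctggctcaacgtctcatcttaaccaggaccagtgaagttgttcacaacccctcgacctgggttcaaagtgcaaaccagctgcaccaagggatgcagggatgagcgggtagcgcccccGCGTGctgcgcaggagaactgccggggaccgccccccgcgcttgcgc
Fis1, chr5:136953025-136953274, plus strand, shown as a gene whose level did not pass the test: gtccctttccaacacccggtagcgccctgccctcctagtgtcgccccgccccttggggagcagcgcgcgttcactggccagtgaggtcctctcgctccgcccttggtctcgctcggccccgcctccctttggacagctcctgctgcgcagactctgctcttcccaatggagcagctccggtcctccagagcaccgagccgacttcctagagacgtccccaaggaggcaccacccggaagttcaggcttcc
The *Bnip3* window held 5 matches, beginning 117, 108, 107, 99 and 35 bases before the start. The matches at 108 and 107 are the same palindrome, CACGTG, read on both strands, which is also the core of the E-box. The *Pink1* window held 1 match, 47 bases before the start, and the *Fis1* window shown held 0. Over the 8 genes, 4 (*Bnip3*, *Pink1*, *Mfn2* and *Dnm1l*) had a match in at least 1 window, where 62.3% of the 9582 tested genes with a promoter entry did. Of the genes that were not called, *Mfn2* had a match in each of its windows, and *Fis1*, *Mfn1*, *Opa1* and *Fundc1* had none. *Dnm1l*, called higher, had 1 match in 1 window and 0 in the other. Windows with 5 or more matches made up 1.01% of all 32851 promoters, and 2.26% of the tested genes had such a window. The cut of 5 is the count of the *Bnip3* window itself, with its palindrome counted on both strands. These shares are therefore a description and not a test. AGGTCA was in none of the windows of the 8 genes and in 14.0% of all promoters. Such matches describe letters in a window and are not binding sites.

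Among the genes of fission, *Dnm1l* (gene 74006, chromosome 16, 16312228 to 16359038) was higher in RORγtN275D Th17 cells. It had 1737, 1776 and 1531 normalized reads in WT and 1915, 1886 and 2019.6 in mutant libraries. WT replicate 3 was the lowest, and the groups did not overlap. The difference on the log2 scale was 0.21 ± 0.05 (standard error, limma, adjusted p = 0.00431), or 1.16-fold with a 95% interval of 1.07 to 1.25. Without WT replicate 3 it was 0.14 (adjusted p = 0.00412 from limma), and in eBayes without a trend the call was lost (adjusted p = 0.0500071). An antisense RNA gene overlaps *Dnm1l*. *Fis1* (gene 66437, chromosome 5, 136953275 to 136966234) had 1349, 1244 and 1338 normalized reads in WT and 1444, 1371 and 1319 in mutant libraries. The groups overlapped, and the log2 fold change was 0.07 (adjusted p = 0.242 from limma) with a 95% interval of -0.03 to 0.18.

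The fusion genes had values slightly lower in RORγtN275D cells, and none passed the test. *Mfn2* (gene 170731, chromosome 4, 147873586 to 147904909) had 2314, 2263 and 2291 normalized reads in WT and 2182, 2132 and 2113 in mutant libraries. Each mutant library was below each WT library, by a small margin. The difference on the log2 scale was -0.10 ± 0.04 (standard error, limma, adjusted p = 0.0525), with a 95% interval of -0.18 to -0.01 that is not adjusted for the number of genes. A processed pseudogene overlaps *Mfn2* on the opposite strand. *Mfn1* (gene 67414, chromosome 3, 32529443 to 32579225) had 831, 893 and 849.7 normalized reads in WT and 872, 811 and 817 in mutant libraries, and the groups overlapped. Its log2 fold change was -0.04 (adjusted p = 0.529 from limma), with a 95% interval of -0.15 to 0.07. *Opa1* (gene 74143, chromosome 16, 29579281 to 29663127) had 1819, 1729 and 1572 normalized reads in WT and 1558, 1717 and 1670.0 in mutant libraries, with overlap because WT replicate 3 was low. Its log2 fold change was -0.05 (adjusted p = 0.487 from limma), with a 95% interval of -0.16 to 0.07. Without WT replicate 3, both *Mfn2* (-0.10, adjusted p = 0.0317 from limma) and *Opa1* (-0.11, adjusted p = 0.0437 from limma) were called lower.

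**Figure D2:**
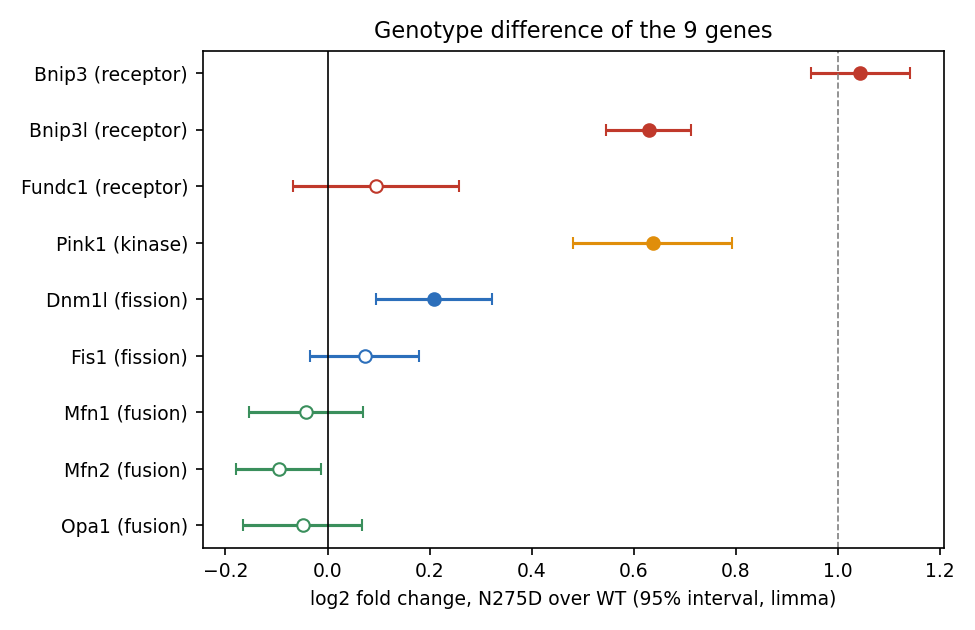
Log2 fold change of each gene in N275D over WT (horizontal axis) with its 95% interval from limma, coloured by role. Filled points passed at an adjusted p under 0.05, the dashed line marks 2-fold, and the filled points run from 0.21 for *Dnm1l* to 1.04 for *Bnip3* while the 3 fusion genes sit between -0.10 and -0.04.

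Ratios of 2 genes within a library do not depend on how the libraries were scaled. The ratio of *Bnip3* to *Bnip3l* reads was 0.523, 0.554 and 0.552 in WT and 0.745, 0.699 and 0.728 in RORγtN275D libraries. Each mutant library had a higher ratio than any WT library. On the log2 scale the ratio was higher by 0.42 in mutant cells, from -0.88 ± 0.05 to -0.47 ± 0.05 (SD, n = 3 each, exact two-sided permutation p = 0.1, adjusted over the 3 ratios 0.15). An exact test of 3 libraries against 3 cannot give a p below 0.1. The 2 receptors together went from 4150 to 4436 normalized reads in WT to 7219 to 7574 in mutant libraries, and *Bnip3* made up 34.3% to 35.6% of that sum in WT and 41.1% to 42.7% in mutant libraries. The share is of reads, uncorrected for exon length, which is 2.265 kb for *Bnip3* and 3.859 kb for *Bnip3l*. Per kb of exon, as given below, *Bnip3* was the higher of the 2 in mutant cells.

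The ratio of *Dnm1l* to *Opa1* reads was 0.955, 1.03 and 0.974 in WT and 1.23, 1.10 and 1.21 in mutant libraries, without overlap. It was higher by 0.26 on the log2 scale in mutant cells, from -0.02 ± 0.05 to 0.24 ± 0.09 (SD, n = 3 each, exact two-sided permutation p = 0.1, adjusted 0.15). The ratio of *Mfn1* to *Mfn2* was 0.359, 0.395 and 0.371 in WT and 0.399, 0.380 and 0.386 in mutant libraries. These overlapped, with a log2 difference of 0.05 (exact two-sided permutation p = 0.3, adjusted 0.3). The reads of both fission genes over those of the 3 fusion genes came to 0.609 to 0.622 in WT and 0.699 to 0.728 in mutant libraries, given as a description with no test.

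**Figure D3:**
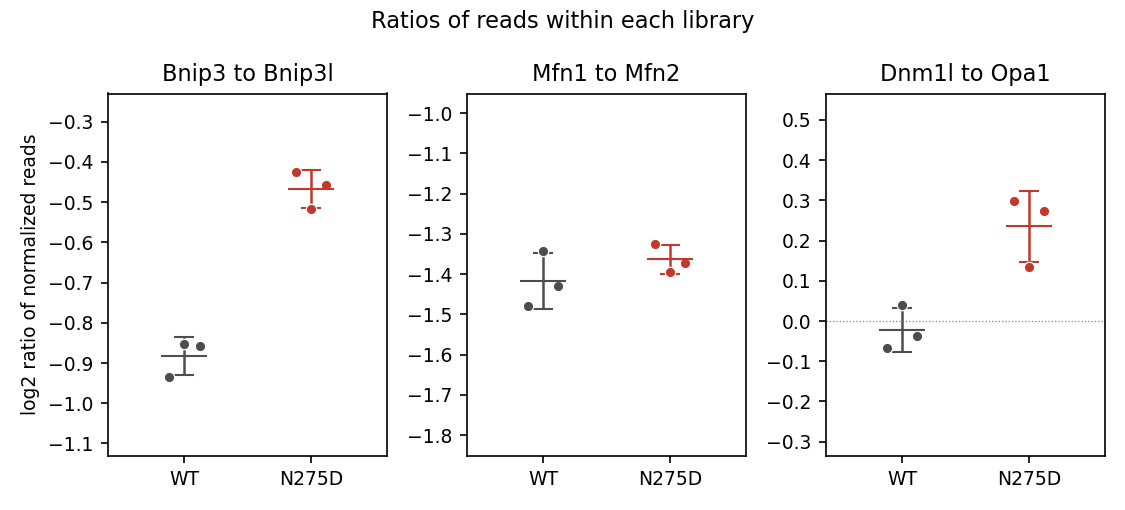
Log2 ratio of normalized reads of a pair of genes within each library (vertical axis), with the mean ± SD of 3 libraries per genotype. All panels span the same height, and the genotypes separate for *Bnip3* to *Bnip3l* (0.42) and *Dnm1l* to *Opa1* (0.26) but overlap for *Mfn1* to *Mfn2*.

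Divided by exon length (the union of each gene's exons in GENCODE M21, also GRCm38), levels could be compared between genes. In WT cells *Fis1* was at 765 ± 33.8, *Bnip3l* at 717 ± 23.5 and *Bnip3* at 663 ± 30.9 normalized reads per kb (SD, n = 3 each), and the ranges of neighbours in this order overlapped. In RORγtN275D cells the order of these 3 was *Bnip3* at 1367 ± 52.5, *Bnip3l* at 1109 ± 22.8 and *Fis1* at 804 ± 36.4 normalized reads per kb, without overlap. *Mfn2* (441 and 412), *Dnm1l* (323 and 373) and *Opa1* (217 and 209) followed in both genotypes, as WT and mutant means per kb. *Pink1* moved from the ninth place in WT (119.6) to the seventh in mutant cells (186), above *Fundc1* (151 and 161) and *Mfn1* (140.3 and 136), and its range then overlapped that of *Opa1*. The order depends on the length used. The longest coding transcript in place of the exon union was chosen after the data were seen. With that length, *Fis1* (1382 in WT and 1454 in mutant cells) stood above *Bnip3l* (849 and 1313) in both genotypes. *Bnip3* (855 and 1764) was still above both in mutant cells, and in WT cells it stood just above *Bnip3l*.

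**Figure D4:**
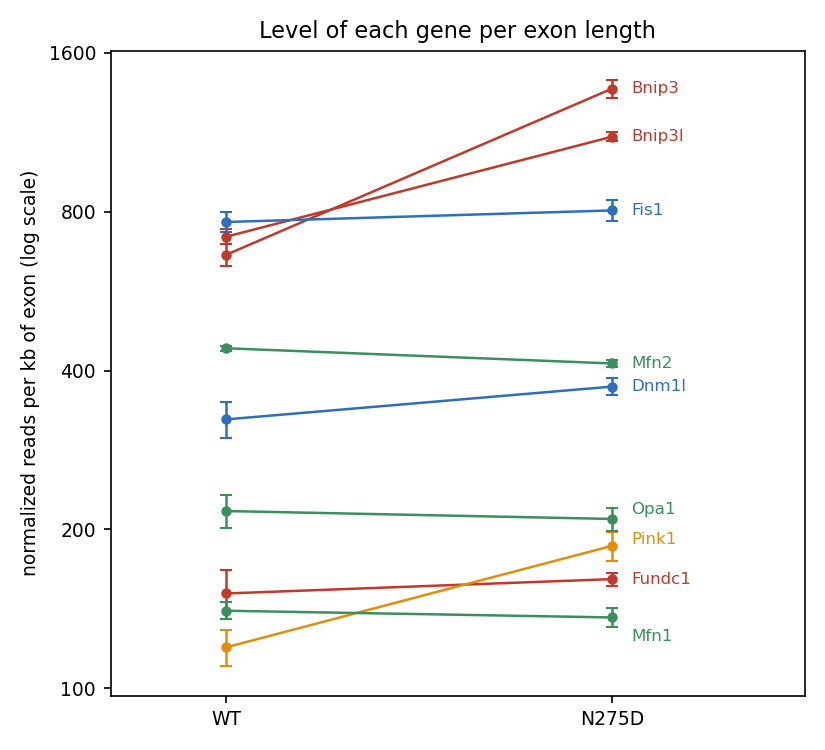
Mean normalized reads per kb of exon (vertical axis, log scale) of each gene in WT and N275D cells, with SD bars (n = 3), coloured by role as receptor (red), kinase (orange), fission (blue) and fusion (green). *Bnip3* goes from 663 to 1367 and is above *Bnip3l* and *Fis1* in N275D cells, while the lines of the fusion genes are nearly flat. In WT cells the ranges of *Bnip3* and *Bnip3l* overlap, and their order depends on the length used.

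The machinery that receptors dock to was measured through 29 genes of autophagosome initiation and LC3 conjugation. Of these, 16 were called higher and 3 lower, and 10 were not called (65.5% called, against 50.9% of all genes tested), with a median log2 fold change of 0.16 where that of all genes tested was -0.0026. Over the alternatives, 12 (without N275D replicate 1 or WT replicate 2) to 17 (edgeR) were called higher. DESeq2 called 13 higher and 1 lower. The calls among all genes tested also moved, from 6056 in the limma fit with all libraries to 5078 with DESeq2 and 6085 with edgeR. They numbered 5188 without N275D replicate 1 and 5661 without WT replicate 2. *Wipi1*, a phosphoinositide-binding protein of early autophagosomes, had the largest increase (25.3 ± 6.59 to 67.4 ± 10.7 normalized reads, SD, n = 3 each, log2 fold change 1.39, adjusted p = 2.83e-05 from limma). *Pik3c3*, the lipid kinase VPS34, averaged 899 ± 40.7 normalized reads in WT libraries and 1541 ± 13.4 in mutant ones (SD, n = 3 each, log2 fold change 0.78, adjusted p = 1.88e-09 from limma). *Atg2b* (-0.22) and *Pik3r4* (-0.15), a subunit of the VPS34 complex, fell most, and *Pik3r4* lost its call in 3 of 16 alternatives. Among the small ubiquitin-like proteins that BNIP3 and BNIP3L bind, singled out after their values were seen, *Map1lc3a* (0.44), *Gabarapl1* (0.34), *Map1lc3b* (0.27) and *Gabarap* (0.23) rose in log2 fold change, whereas *Gabarapl2* was at -0.03 (adjusted p = 0.735 from limma).

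Other mitophagy receptors, genes of ubiquitin-dependent mitophagy and ubiquitin adaptors made up a list of 28 genes, of which 27 were tested. In this list 6 genes were called higher, 9 lower and 12 neither (55.6% called, near the 50.9% of all genes tested), with a median log2 fold change of 0.03. *Sqstm1*, the adaptor p62 that links ubiquitin to LC3, rose most, from 3204, 3015 and 3133 normalized reads in WT to 5974, 5892 and 5723 in mutant libraries (log2 fold change 0.91, adjusted p = 1.85e-11 from limma). *Nlrx1*, an LC3-binding protein of mitochondria, came next (0.64). *Rhot2* (-0.32), a GTPase that couples mitochondria to motor proteins, and *Pptc7* (-0.27), a mitochondrial phosphatase that restrains BNIP3 and BNIP3L protein, fell most.

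Of 14 tested fission adaptors and regulators, 3 were called higher and 5 lower (57.1% called, against 50.9% of all genes tested), with a median log2 fold change of 0.0031. *Mief2* (0.38), a DRP1 receptor of the outer membrane, and *Stx17* (0.32), a syntaxin of autophagosomes, rose most. *Mtfp1* (-0.62), an inner membrane protein of fission, and *Inf2* (-0.38), a formin that builds actin at fission sites, fell most. Under quantile normalization 6 genes of this list were called higher and 4 lower, where 5806 of all genes tested were called, against 6056 without it. Of 19 tested genes of fusion, inner membrane proteases and cristae, 1 was called higher and 8 lower, with a median of -0.10. The share called in either direction was 47.4%, near the 50.9% of all genes tested. By direction this list was uneven, where 24.7% of all genes tested were called higher and 26.1% lower. *Afg3l2* (0.14), a subunit of an inner membrane protease, was the one called higher, and *Phb* (-0.41), a prohibitin, and *Apoo* (-0.26), a subunit of the cristae complex MICOS, fell most, the latter without a call in 2 of 16 alternatives.

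**Figure D5:**
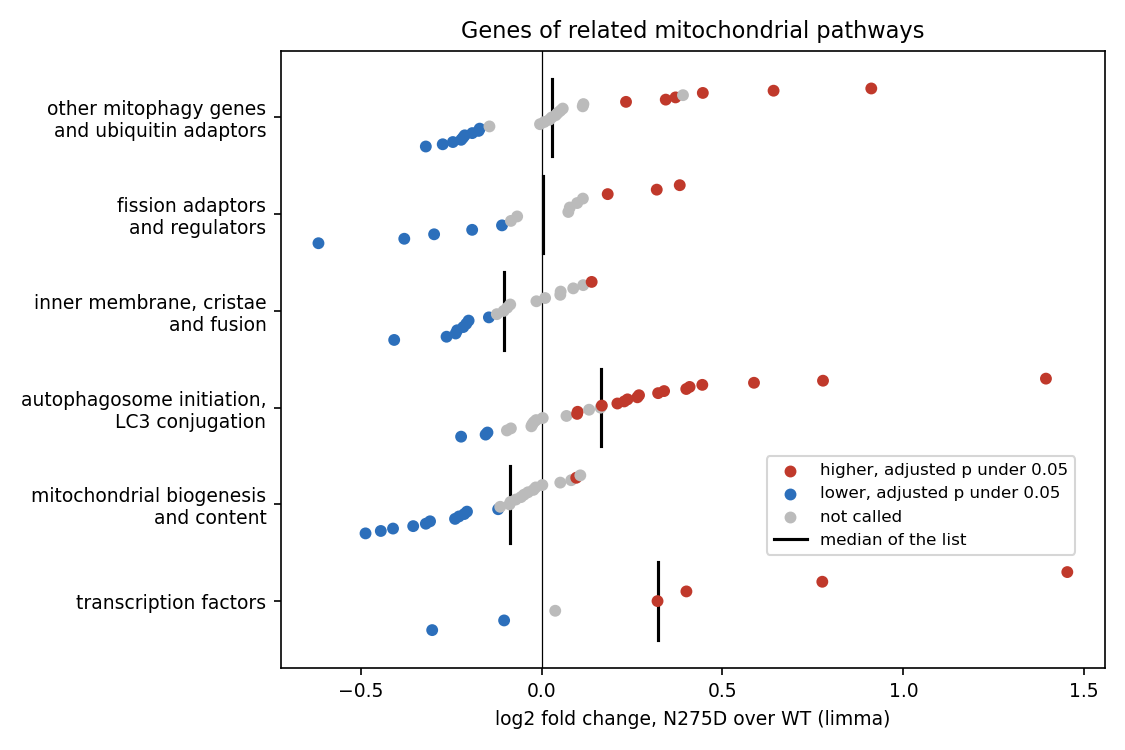
Log2 fold change in N275D over WT (horizontal axis) of each tested gene of 6 lists of related genes, with the list median as a black bar. Red and blue points passed at an adjusted p under 0.05, and the medians run from -0.10 for the inner membrane list to 0.32 for the transcription factors.

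Of 7 transcription factors known to act on *Bnip3* or *Bnip3l*, 4 were called higher and 2 lower (85.7% called, against 50.9% of all genes tested). Of the calls, 1 (*Epas1*) reached 2-fold, where 3.59% of all genes tested were called at 2-fold. *Hif1a* averaged 5137 ± 317 normalized reads in WT libraries and 8785 ± 55.9 in mutant ones (SD, n = 3 each, log2 fold change 0.78, adjusted p = 4.00e-10 from limma), and *Arnt*, its partner, rose by 0.32 on that scale (adjusted p = 1.59e-05 from limma). *Epas1*, which encodes HIF-2α, was low in both genotypes, at 20.4 ± 3.43 and 57.1 ± 4.75 normalized reads (SD, n = 3 each, log2 fold change 1.45, adjusted p = 8.93e-06 from limma). The forkhead factors moved in opposite directions, with *Foxo1* at 0.40 and *Foxo3* at -0.30, both called. *Trp53*, the second called lower, was at -0.10 (adjusted p = 0.0459 from limma) and lost its call in 10 of 16 alternatives (adjusted p up to 0.353), and *E2f1* was not called (0.04, adjusted p = 0.666 from limma).

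Over the 6 libraries, the log2 values of *Bnip3* and *Bnip3l* had a Pearson r of 0.997, and those of *Bnip3* and *Pink1* an r of 0.95. *Bnip3* and *Mfn2* had an r of -0.94. The named genes most like *Bnip3* were *Glce*, *Blzf1*, *Enpp2*, *Nedd4* and *Sesn3* (r of at least 0.999), with log2 fold changes between 0.30 for *Blzf1* and 1.02 for *Nedd4*. Those most like *Bnip3l* were *Ctif*, *Serpinb6b* and *Tigit*, with log2 fold changes of 0.90, 1.47 and 0.53. The 6 points fall into 2 genotypes and share their libraries and scaling, so these values are given as a description.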

How the data were processed

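RNA was measured in 3 WT and 3 RORγtN275D Th17 libraries, grouped by the sample descriptions. The methods describe trimming, STAR alignment to mm10, featureCounts counting and a DESeq2 comparison by the authors, with no versions in the sources used here. The labels name poly-A selection with a directional kit, and the methods another strand-specific one. The deposited values are a signal, namely counted reads scaled by the authors with a single factor for each library. Of all values 100% were whole multiples within 1e-06, which gave back the reads. The authors' deposited log2 fold changes, their q-values and their group means were not used.

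limma (3.58.1, R 4.3.3) with a trended prior was fitted to log2(normalized reads + 1) for 11908 genes averaging 10 or more, with no block term. It was checked on simulated data in which few genes changed, each by at least 2-fold, between independent libraries. That check does not cover smaller changes or libraries that are technical replicates. Pseudocounts of 0.1 and 10, filters keeping means above 0 or from 100 up, scaling by TMM or quantiles, eBayes without a trend, a replicate block, leaving out each library, and edgeR (4.0.16) and DESeq2 (1.42.0) on the recovered reads were alternatives. Ratios were tested by exact permutation (SciPy 1.17.1). The members and lists were chosen with earlier results of these data known. The text names all 9 members, the 2 largest called changes per list and direction, all listed transcription factors, and the 5 genes most correlated with *Bnip3* and 3 with *Bnip3l* (genes with provisional names passed over). Outside that rule, and chosen after values were seen, it names 5 LC3 and GABARAP genes and the markers *Ms4a1* and *Sox13*. Coordinates are RefSeq's on GRCm38.p6, the build mm10, matched by gene number. One gene of the lists is not reported by name here.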

Additional observations from a re-analysis of the deposited data

How the results depend on the processing

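*Bnip3*, *Bnip3l* and *Pink1* were called higher under each of the 16 alternatives, with log2 fold changes of 1.01 to 1.09, 0.60 to 0.71 and 0.58 to 0.70. Adjusted p-values ran up to 0.000108, 0.000285 and 0.00179. *Dnm1l* kept its call in 15 of 16 (0.14 to 0.26), and *Fundc1*, *Fis1* and *Mfn1* kept their direction and were not called in any. The number of members called higher was 4 in all but eBayes without a trend, which gave 3 because *Dnm1l* was lost (0.21, adjusted p = 0.0500071). The number called lower was 0 except without WT replicate 3, which gave 2, *Mfn2* (-0.10) and *Opa1* (-0.11), so that it ranged from 0 to 2 over the fits that leave out 1 library. With 1 library left out, that genotype has 2 libraries. Genes called among all those tested numbered 6056, and 5078 (DESeq2) to 6396 (without WT replicate 3) otherwise. The 427 genes at 2-fold became 703 with all genes with a mean above 0, 162 with a mean of at least 100 and 259 with a pseudocount of 10, where the filters test more or fewer genes and a larger pseudocount shrinks the change of low genes. The log2 ratio of *Bnip3* to *Bnip3l* differed by 0.39 to 0.44, that of *Dnm1l* to *Opa1* by 0.23 to 0.31 and that of *Mfn1* to *Mfn2* by 0.02 to 0.09. Same-numbered libraries did not deviate together (r of -0.05, 0.04 and -0.08). These values cannot show whether such libraries were prepared together, which is not stated. The replicate block gave 5727 calls and the same 4 members called (*Bnip3*, adjusted p = 1.54e-12, *Dnm1l*, adjusted p = 0.00609, from limma). The pseudocount of 1 in ratios and the other gene lengths were chosen after the data were seen.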

Other observations

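Of 25 tested genes of mitochondrial biogenesis and content, 1 was called higher, 11 lower and 13 neither in RORγtN275D Th17 cells. The share called in either direction was 48.0%, near the 50.9% of all genes tested. By direction the list was uneven, where 24.7% of all genes tested were called higher and 26.1% lower. Its median log2 fold change was -0.09. *Vdac1*, an outer membrane channel, was the one called higher, from 6918 ± 190.5 to 7392 ± 84.8 normalized reads (SD, n = 3 each, log2 fold change 0.10, adjusted p = 0.0303 from limma), and lost its call in 6 of 16 alternatives (adjusted p up to 0.134). *Ppargc1b*, a coactivator of mitochondrial biogenesis, fell most, from 191 ± 15.8 to 137 ± 22.2 normalized reads (SD, n = 3 each, log2 fold change -0.49, adjusted p = 0.00187 from limma). *Twnk*, the mitochondrial DNA helicase, had 894, 839 and 892 normalized reads in WT and 658, 647 and 623 in mutant libraries, without overlap (log2 fold change -0.44, adjusted p = 4.08e-06 from limma).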
